A study of Mus musculus with 5 samples.

Results

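The 8 genes described here, Mpo, Elane, Prtn3, Ctsg, Prss57, Ms4a3, Cst7 and Fcnb, were taken by their symbols from the 32285 genes of the count matrices, where each symbol matched 1 gene. They had been put together as primary granule genes of progenitors, and all 8 could be measured. The label held for 6 of them: most UMIs of Mpo, Elane, Prtn3, Ctsg, Prss57 and Ms4a3 came from progenitor and monocyte cells in each of the 5 libraries. Fcnb was found mainly in neutrophils, and Cst7 was shared between leukaemic cells, T cells and progenitors.

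Neutrophils and monocytes arise in bone marrow from granulocyte-monocyte progenitors. At the promyelocyte stage the maturing granulocyte fills its primary (azurophil) granules with a peroxidase and serine proteases, and it later switches to the proteins of secondary and tertiary granules. The primary granule transcripts are therefore brief and very abundant, and mature neutrophils keep the proteins but little of the messenger RNA. In stressed mice the spleen also holds such progenitors. Transcription factors of the ETS, C/EBP, RUNX and MYB families act on these genes, and inv(16) leukaemia carries a fusion of the RUNX partner Cbfb.

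All mice were C57BL/6 animals engrafted by vein with CMM cells, a GFP-marked acute myeloid leukaemia (AML) with inv(16), and treatment began when about 1% of blood cells were GFP-positive. One group received 3 intravenous doses, every other day, of CpG-STAT3dODN, an oligonucleotide decoy for the transcription factor STAT3 linked to a CpG sequence that binds TLR9 (libraries Decoy 2, 3, 5 and 6, n = 4), and the other received PBS on the same schedule (1 library, n = 1). GFP+c-Kit+ cells were sorted from spleens and UMIs, single molecules of messenger RNA, were counted per cell with 10x 3′ chemistry. The study asked how blocking STAT3 while engaging TLR9 acts on leukaemic cells and their differentiation. Whether the libraries stem from separate mice is not stated in the labels. The p-values therefore cover the spread among these libraries alone, and with 1 PBS library that spread is the one among Decoy libraries.

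Mpo encodes myeloperoxidase, which makes hypochlorous acid, and lies at chr11:87793581-87804413 on the plus strand. Elane (neutrophil elastase), Prtn3 (proteinase 3) and Prss57 (neutrophil serine protease 4) are proteases of 1 cluster on chromosome 10. Prtn3 at chr10:79874476-79883174 ends 3072 bases before Elane at chr10:79886247-79888215, both on the plus strand, and Prss57 lies on the minus strand at chr10:79781474-79790961. Ctsg (cathepsin G) is at chr14:56099881-56102574 on the minus strand. Ms4a3, a membrane protein with several spans that marks granulocyte-monocyte progenitors, is at chr19:11629496-11640851 on the minus strand. Cst7 (cystatin F, an inhibitor of the cathepsin that activates granule proteases) is at chr2:150570415-150578944 on the plus strand. Fcnb (ficolin-B, a lectin) is at chr2:28076378-28084885 on the minus strand. Coordinates are those of GENCODE vM21 on GRCm38, the build of the files, and all 8 are annotated as protein-coding.

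The promoters are shown because the genes, apart from Fcnb, varied together from cell to cell, and that of Fcnb is shown beside them for comparison. RefSeq promoter sequences on GRCm38.p6 were matched for 7 of the 8 genes, Prss57 being the exception, and the 250 bases before each start were searched on both strands. The ETS core GGAAGT (or ACTTCC), which PU.1 and other ETS factors bind, was found in 7 of 7, against 19.7% of 32851 promoters. The lines below give each core in capitals with up to 30 bases on either side, trimmed where an annotated exon begins, 5′ to 3′ along the strand of the gene.
Mpo, chr11:87793534-87793580, plus strand: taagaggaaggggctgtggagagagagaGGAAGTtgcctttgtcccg
Elane, chr10:79886199-79886246, plus strand: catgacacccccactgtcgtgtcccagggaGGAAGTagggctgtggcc
Prtn3, chr10:79879544-79879609, plus strand: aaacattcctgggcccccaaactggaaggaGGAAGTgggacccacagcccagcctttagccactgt
Ctsg, chr14:56102744-56102809, minus strand: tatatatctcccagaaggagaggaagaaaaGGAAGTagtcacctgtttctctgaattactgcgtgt
Ms4a3, chr19:11640871-11640936, minus strand: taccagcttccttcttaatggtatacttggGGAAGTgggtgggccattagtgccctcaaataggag
Cst7, chr2:150570323-150570388, plus strand: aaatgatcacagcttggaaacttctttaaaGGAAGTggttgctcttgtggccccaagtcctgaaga
Fcnb, upstream copy, chr2:28085030-28085095, minus strand: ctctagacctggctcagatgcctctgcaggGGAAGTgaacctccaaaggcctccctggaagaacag
Fcnb, downstream copy, chr2:28084945-28085010, minus strand: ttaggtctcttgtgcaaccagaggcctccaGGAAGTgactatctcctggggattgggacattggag

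In each of these the core stands on the strand of the gene, between 55 bases before the RefSeq start in Ms4a3 and 222 bases before it in Mpo. RefSeq starts can differ from the GENCODE starts given above. The RefSeq start of Prtn3, and with it the stretch shown, lies inside the GENCODE span of that gene. For Mpo and Elane the stretch ends at the base before the GENCODE start. Fcnb, which neutrophils expressed most, holds 2 copies. The MYB core AACNG (or CNGTT) was in 6 of 7 promoters, against 74.2% of all. The C/EBP letters TTNNGNAA (or TTNCNNAA) were in 3 of 7, against 36.8%, namely Cst7, Fcnb and Ms4a3, and in Ms4a3 they overlap the ETS core. The RUNX core TGTGGT (or ACCACA) was in 2 of 7, Cst7 and Ctsg, against 14.05%. A match describes letters only, and its absence says nothing of a factor.

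After filtering, 28895 cells remained: 5900, 1901, 3471 and 3123 in Decoy 2, 3, 5 and 6, and 14500 in PBS, with medians of 13387 to 35828 UMIs per cell in the Decoy libraries and 30318.5 in PBS. Libraries shared 1 to 45 cell barcodes in pairs, at most 0.695% of the smaller library. Clusters were made and named without the 8 genes. The largest class, with Fcer1a and Ms4a2 among its markers, is called leukaemic here. Kit, the transcript of the sort marker c-Kit, was seen in 54.9% to 68.6% of leukaemic cells in Decoy 2, 3 and 6 and 63.5% in PBS, in 11.9% to 19.5% of progenitor and monocyte cells in the Decoy libraries and 11.1% in PBS, and in 0% to 0.719% of B cells in the Decoy libraries and 0% in PBS. The defining marker of the sort was thus at or near 0 in part of the cells. The leukaemic class held 4925, 375, 1 and 1399 cells of the Decoy libraries and 13226 of PBS. Decoy 5, with 1 such cell, has no leukaemic value below.

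The cells that carry most of these transcripts formed 1 class of 823 cells. It showed 7 of 14 markers of granulocyte-monocyte progenitors and 5 of 9 of monocytes, among them Ly6c2, Ccr2, F13a1 and Fn1, and is called the progenitor and monocyte class. It made up 2.95%, 6.47%, 8.44% and 4.58% of the cells of Decoy 2, 3, 5 and 6, against 0.621% of PBS cells (exact Clopper-Pearson 95% interval 0.499% to 0.762%). All Decoy libraries were above PBS, with a Decoy mean of 5.61% ± 2.37 (SD, n = 4), and the exact two-sided permutation p was 0.2, the smallest that 5 libraries allow. Among cells outside the leukaemic class the share was 17.8%, 8.06%, 8.44% and 8.29% in the Decoy libraries and 7.06% in PBS (exact permutation p = 0.4). Decoy 2 stood apart on that scale, and the other Decoy libraries lay close to PBS. The share was thus larger in Decoy over all cells, and much less so once leukaemic cells were set aside. The neutrophil class, with all 15 of its markers, held 136, 61, 209 and 118 Decoy cells and 46 PBS cells.

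**Figure D1:**
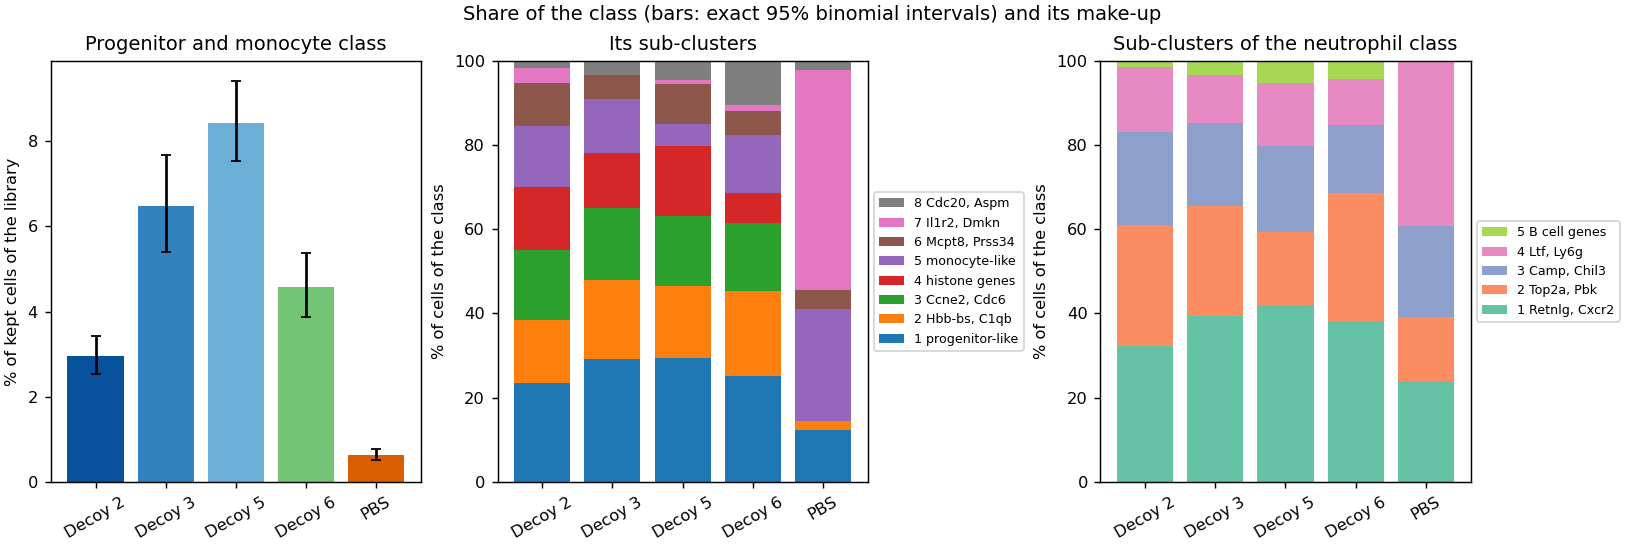
The left panel gives the percent of kept cells in the progenitor and monocyte class per library, with exact 95% binomial intervals, and the other panels stack the percent of each class by sub-cluster. All Decoy bars stand above the PBS bar of 0.621%, and the sub-cluster led by Il1r2 and Dmkn holds 47 of the 90 PBS cells. Sub-clusters are labelled by leading or marker genes.

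Summed over all kept cells, 7 of the 8 genes were higher in every Decoy library than in PBS. A level here is in CPM, the UMIs of the gene scaled to the total UMIs of the same cells and with no correction for gene length. Mpo stood at 26.8, 123, 153 and 61.0 CPM in Decoy 2, 3, 5 and 6, against 5.14 CPM in PBS. Elane stood at 44.7, 217, 217 and 109 CPM in the Decoy libraries, against 9.46 CPM in PBS. Decoy 3 and 5 were highest for both and Decoy 2 was the lowest Decoy library, as in the share of progenitor and monocyte cells.

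The other proteases followed the same order. Prtn3 had 118, 470, 586 and 240 CPM in the Decoy libraries, against 25.5 CPM in PBS. Ctsg had 42.7, 173, 211 and 85.2 CPM in the Decoy libraries, against 9.35 CPM in PBS. Prss57 had 2.68, 10.8, 11.53 and 5.76 CPM in the Decoy libraries, against 0.799 CPM in PBS. No Decoy value of these proteases overlapped with PBS.

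Ms4a3 had 26.5, 97.1, 103 and 48.7 CPM in the Decoy libraries, against 8.47 CPM in PBS. Fcnb had 10.99, 19.9, 23.5 and 18.4 CPM in the Decoy libraries, against 0.926 CPM in PBS. Cst7 went the other way, with 25.2, 22.4, 19.9 and 27.4 CPM in the Decoy libraries, against 27.5 CPM in PBS. Its PBS value was just above the highest Decoy value, so this gene separated the groups by almost nothing.

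The log2 fold change of Decoy over PBS over all kept cells ran from 2.96 (SE 0.92) for Ms4a3 to 4.25 (SE 0.53) for Fcnb among the 7 genes, with Mpo at 4.08 (SE 1.21), and was -0.24 (SE 0.26) for Cst7. None of the 8 was called by the quasi-likelihood test of edgeR with Benjamini-Hochberg adjusted p under 0.05 (adjusted p = 0.460 for the 7 and 0.596 for Cst7), nor was any of the 15906 genes tested (0%). At an unadjusted p under 0.05 the count was 7 of 8, and 1672 of all genes. DESeq2 called the 7 as higher, with 9.02% of all genes called and 8.98% called higher. Without Decoy 2, edgeR called the same 7 (adjusted p 0.0184 to 0.0334), among 2401 genes called. The PBS library lay below every Decoy library for 7 of 8 genes, against 33% of all genes. In summed counts, fewer cells of a type and less RNA per cell cannot be told apart, and the levels within classes are given next.

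**Figure D2:**
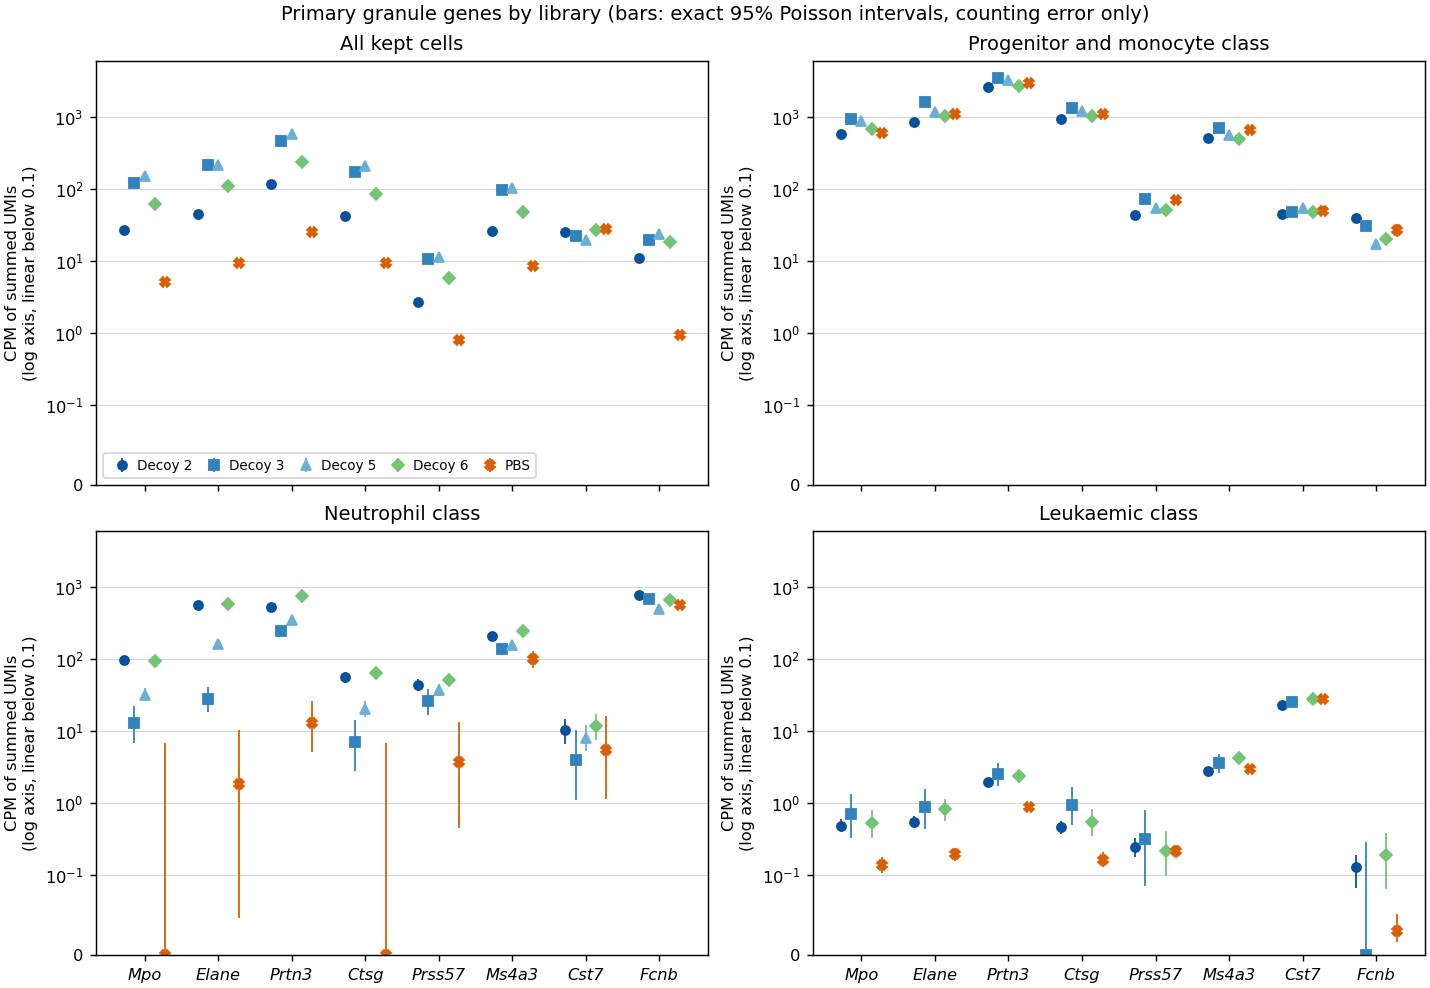
CPM of each gene per library (log axis, linear below 0.1) in all kept cells and in 3 classes, with exact 95% Poisson intervals; Decoy 5 has no leukaemic value. PBS lies below the Decoy libraries for 7 genes in all kept cells and for 6 in neutrophils, Fcnb and Cst7 being inside the Decoy range there, and falls among the Decoy libraries in the progenitor and monocyte class.

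Most of the transcripts came from few cells. In Decoy 2, 3, 5 and 6 the progenitor and monocyte class held 88.2%, 90.3%, 96.9% and 79.6% of all Mpo UMIs, and in PBS 97.3%. For Elane the class held 68.4% to 93.4% in the Decoy libraries and 97.9% in PBS, and for Ctsg 87.8% to 97.8% in the Decoy libraries and 98.2% in PBS. The neutrophil class added 14.7%, 0.245%, 2.99% and 13.2% of Elane in Decoy 2, 3, 5 and 6, against 0.0236% in PBS.

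Fcnb and Cst7 did not share that origin. The neutrophil class held 65.6% to 90.0% of Fcnb UMIs in the Decoy libraries and 72.8% in PBS. The leukaemic class held 82.1%, 26.9%, 0% and 54.1% of Cst7 in Decoy 2, 3, 5 and 6 and 97.0% in PBS, and T cells held 8.47% to 27.6% in the Decoy libraries and 1.27% in PBS. For Ms4a3 the leukaemic class held 9.48%, 0.882%, 0% and 4.66% in the Decoy libraries and 33.6% in PBS, and for Prss57 8.16%, 0.707%, 0% and 1.98% in the Decoy libraries and 26.0% in PBS.

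**Figure D3:**
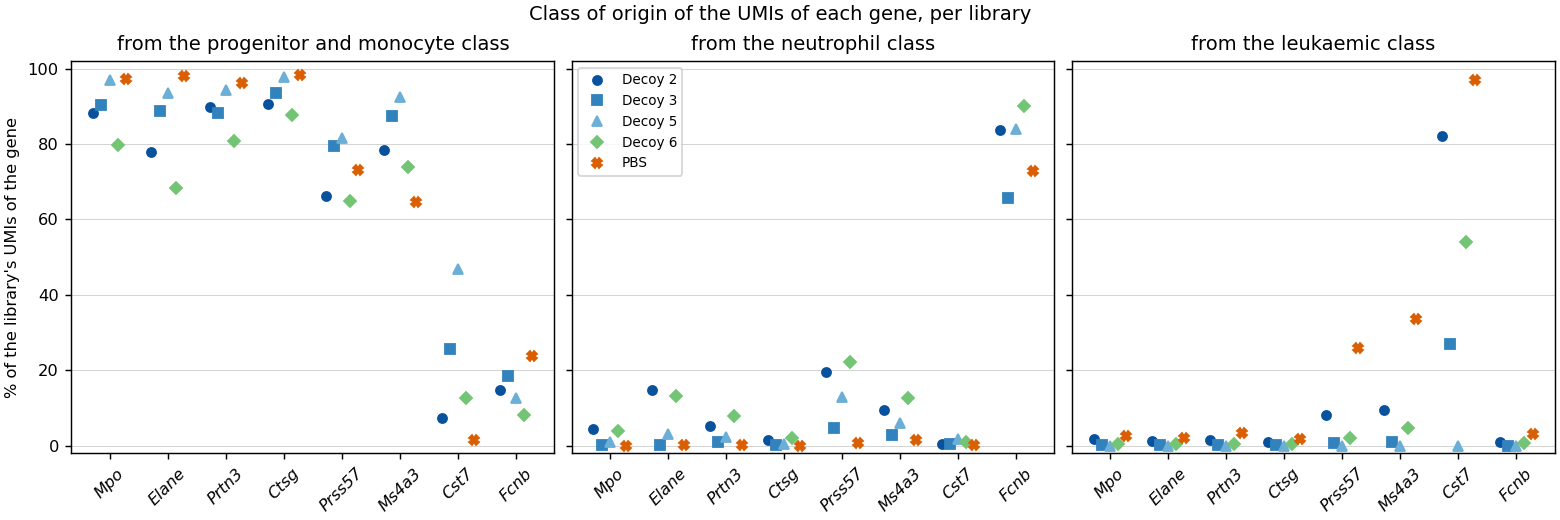
Percent of the UMIs of each gene in a library (vertical axis) that came from the progenitor and monocyte, neutrophil and leukaemic classes. Fcnb stands high in the neutrophil panel and Cst7 in the leukaemic panel, where PBS reaches 97.0%.

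Within the progenitor and monocyte class no difference between the groups was found for any of the 8 genes. Mpo stood at 577, 926, 872 and 677 CPM in Decoy 2, 3, 5 and 6, against 601 CPM in PBS. Elane stood at 848, 1615, 1192 and 1038 CPM in the Decoy libraries, against 1115 CPM in PBS. PBS fell inside the Decoy range for both, next to the lowest Decoy value for Mpo and near the middle for Elane.

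Prtn3 had 2585, 3478, 3248 and 2701 CPM in the Decoy libraries, against 2957 CPM in PBS. Ctsg had 945, 1355, 1214 and 1042 CPM in the Decoy libraries, against 1105 CPM in PBS. Prss57 had 43.3, 71.7, 55.2 and 52.0 CPM in the Decoy libraries, against 70.4 CPM in PBS. Decoy 3 was highest and Decoy 2 lowest for each of these proteases, and PBS lay between them.

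Ms4a3 had 507, 710, 560 and 502 CPM in the Decoy libraries, against 660 CPM in PBS. Cst7 had 45.1, 48.3, 54.6 and 48.1 CPM in the Decoy libraries, against 50.2 CPM in PBS. Fcnb had 39.2, 30.7, 17.4 and 20.5 CPM in the Decoy libraries, against 26.6 CPM in PBS. Cst7 varied least between the libraries, with a Decoy mean of 49.0 ± 3.98 CPM (SD, n = 4).

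The log2 fold changes of Decoy over PBS in this class were 0.36 (SE 0.23) for Mpo, 0.08 (SE 0.27) for Elane, 0.03 (SE 0.15) for Prtn3, 0.06 (SE 0.17) for Ctsg, -0.33 (SE 0.23) for Prss57, -0.20 (SE 0.17) for Ms4a3, -0.02 (SE 0.13) for Cst7 and 0.03 (SE 0.43) for Fcnb. edgeR called 0 of 8 (adjusted p 0.454 to 0.988), against 2.77% of 11027 genes, 0 of 8 had an unadjusted p under 0.05, and DESeq2 also called 0 of 8, against 2.19%. Of all genes, edgeR called 1.42% and DESeq2 1.15% higher in Decoy. PBS lay below every Decoy library for 0 of 8, against 30.2% of all genes, and above for 0 of 8, against 29.9%. A p that misses the threshold does not show that the levels are equal. The summed level of the 8 genes was 5590, 8235, 7213 and 6081 CPM in the Decoy libraries, a mean of 6780 ± 1185 (SD, n = 4), and 6585 CPM in PBS (exact permutation p = 1). Without Decoy 3 the difference of 195 CPM turned to -291 CPM.

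The class was not made of the same cells in both groups. It was split into 8 sub-clusters, described by their leading genes. The progenitor-like one, with Myb, Gfi1 and Nkg7, had 41, 36, 86 and 36 cells in the Decoy libraries and 11 in PBS. One with Il1r2 and Dmkn among its leading genes held 6, 0, 3 and 2 Decoy cells and 47 of the 90 PBS cells. Its cells were not alike in both groups: Ngp, a secondary granule gene, stood at 7344 CPM in its Decoy cells and 6.09 CPM in its PBS cells. Cells led by the S phase genes Ccne2 and Cdc6 numbered 122 in the Decoy libraries, and those led by histone genes 101. PBS had 0 of 90 for each, where 3 cells would be 3.33% of the class. The S phase transcripts themselves were not missing from PBS. Over the whole class Cdc6 stood at 30.1 to 36.2 CPM in the Decoy libraries and 31.2 CPM in PBS. Ccne2 stood at 20.2 to 30.4 CPM in the Decoy libraries and 28.2 CPM in PBS. The monocyte-like sub-cluster, with Ccr2, Csf1r and Fn1, had 25, 16, 15 and 20 Decoy cells and 24 PBS cells.

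Granule transcripts differed widely between these sub-clusters, which is a description because the cells were sorted by their own expression. Mpo stood at 1639 CPM over all libraries in the progenitor-like cells, 961 CPM in cells led by the basophil protease genes Mcpt8 and Prss34, 223 CPM in cells led by histone genes and 6.84 CPM in the monocyte-like cells. Ctsg followed the same order, at 2217, 1356, 766 and 13.7 CPM. Prtn3 had 5122 CPM in the progenitor-like and 633 CPM in the monocyte-like cells. Fcnb did not have this order: it stood at 14.7 CPM in the progenitor-like, 25.6 CPM in the monocyte-like and 81.1 CPM in the cells led by Il1r2 and Dmkn.

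In the progenitor-like sub-cluster, Mpo stood at 1151, 1808, 1795 and 1635 CPM in Decoy 2, 3, 5 and 6, against 1857 CPM in the 11 PBS cells. Ctsg stood at 1908, 2389, 2186 and 2185 CPM in the Decoy libraries, against 3143 CPM in PBS. Elane stood at 1441, 2761, 2062 and 2057 CPM in the Decoy libraries, against 2419 CPM in PBS. Prtn3 stood at 4435, 5513, 5197 and 4969 CPM in the Decoy libraries, against 6324 CPM in PBS. Ms4a3 had 880, 1174, 930 and 958 CPM in the Decoy libraries and 1409 CPM in PBS, Prss57 71.9 to 124 CPM in the Decoy libraries and 174 CPM in PBS, and Cst7 73.9 to 86.0 CPM in the Decoy libraries and 129 CPM in PBS. Fcnb had 11.48 to 24.9 CPM in the Decoy libraries and 3 UMIs in PBS. The PBS value was inside the Decoy range for Elane, above it for 6 genes and below it for Fcnb, from those 3 UMIs. How many of all genes lay outside the Decoy range was not counted in this sub-cluster. Over the whole class PBS lay above every Decoy library for 29.9% of all genes and below for 30.2%. The median doublet score was 0.254 in the PBS cells and 0.0365 in the Decoy cells of the sub-cluster. With 11 PBS cells no test was made.

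**Figure D4:**
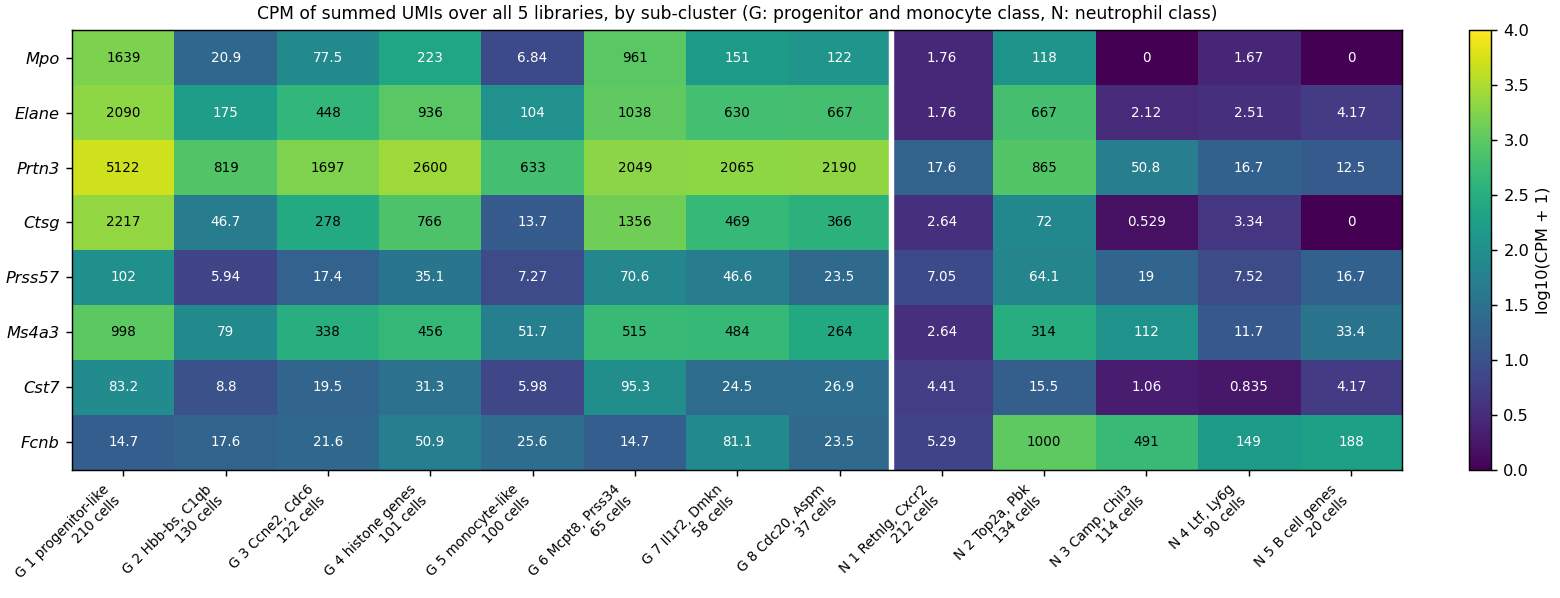
CPM summed over all 5 libraries for each gene (rows) in the sub-clusters of the progenitor and monocyte (G) and neutrophil (N) classes, with colour on a log10(CPM + 1) scale. Mpo reaches 1639 CPM in the progenitor-like column, whereas Fcnb reaches 1000 CPM in the neutrophil column led by Top2a and Pbk.

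From cell to cell the granule genes varied together within a library, apart from Fcnb. Over the cells of the class, Spearman's rho of Mpo with Ctsg was 0.80 to 0.87 in the Decoy libraries and 0.85 in PBS, and that of Elane with Prtn3 was 0.84 to 0.91 in the Decoy libraries and 0.83 in PBS. Cst7 was less close, with 0.58 to 0.67 to Mpo in the Decoy libraries and 0.65 in PBS. Fcnb was near zero with Mpo, at -0.04 to 0.16 in the Decoy libraries and -0.002 in PBS. Cells share a library and differ in depth, so these are descriptions.

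Mpo, Elane, Prtn3, Ctsg and Prss57 were seen in neutrophils of the Decoy libraries and in PBS at 0 to 7 UMIs, but the PBS class was only 46 cells. Mpo had 97.1, 12.95, 32.1 and 93.9 CPM in Decoy 2, 3, 5 and 6, from 9, 4, 11 and 10 cells with a UMI, against 0 UMIs in PBS, where 3 UMIs would be 5.52 CPM. The Decoy mean was at least 10.7-fold higher, and that of Ctsg, with 56.0, 6.97, 20.3 and 64.4 CPM in the Decoy libraries and 0 UMIs in PBS, at least 6.69-fold higher. Elane had 555, 27.9, 162 and 574 CPM in the Decoy libraries and 1 UMI in PBS, a ratio of 179 with a counting interval of 32.2 to 7082. Decoy 2 and 6 were high for these genes and Decoy 3 was low.

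Prtn3 had 526, 249, 345 and 744 CPM in the Decoy libraries, against 12.9 CPM (7 UMIs) in PBS. Prss57 had 43.9, 25.9, 36.8 and 51.2 CPM in the Decoy libraries and 2 UMIs in PBS, a ratio of 10.7 with a counting interval of 2.97 to 88.6. Ms4a3 had 210, 137, 154 and 247 CPM in the Decoy libraries, against 99.3 CPM in PBS. All Decoy libraries exceeded PBS for each of them.

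Fcnb had 775, 683, 493 and 661 CPM in the Decoy libraries, against 556 CPM in PBS, inside the Decoy range. Cst7 had 10.2, 3.99, 8.11 and 11.7 CPM in the Decoy libraries and 3 UMIs in PBS, a ratio of 1.54 with a counting interval of 0.526 to 7.46.

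edgeR called 0 of 8 in neutrophils, against 0.036% of 8343 genes (0.012% higher in Decoy), with 6 of 8 members and 863 of all genes at an unadjusted p under 0.05. Prtn3 came closest, with a log2 fold change of 5.20 (SE 0.75, edgeR adjusted p = 0.0582), followed by Prss57 at 3.46 (SE 0.67, edgeR adjusted p = 0.173) and Ms4a3 at 0.95 (SE 0.32, edgeR adjusted p = 0.368). DESeq2 called 2 of 8, Prtn3 and Elane, against 0.316% of all genes. PBS lay below every Decoy library for 6 of 8, against 30.5% of all genes, and above for 0 of 8, against 30.9%. Leaving out Decoy 2, 3 or 5 in turn let edgeR call Prtn3, and leaving out Decoy 6 left no call.

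The neutrophil values rested on 1 sub-cluster. Its 10 leading genes were Elane, Mpo, Prtn3 and Ctsg, the antibody chain genes Ighg2c and Jchain, and the cell cycle genes Pbk, Ncapd3, Fbxo5 and Top2a. These cells numbered 39, 16, 36 and 36 in the Decoy libraries and 7 in PBS. There Elane stood at 1054, 52.6, 369 and 895 CPM in Decoy 2, 3, 5 and 6 and at 0 CPM in PBS, and Prtn3 at 984, 434, 744 and 1146 CPM in the Decoy libraries and 17.9 CPM in PBS. The same cells, with a median of 30131.5 UMIs, held 4 markers of the leukaemic list (Fcer1a, Ms4a2, Cpa3 and Kit). The antibody gene Igkc stood in them at 3927 CPM over the pooled Decoy libraries, against 0 CPM in PBS. These transcripts were uneven between libraries. Over the whole neutrophil class Igkc had 32.1, 143, 5971 and 105 CPM in Decoy 2, 3, 5 and 6, against 1.84 CPM in PBS. Cpa3 had 170, 1.99, 0.338 and 35.0 CPM in the Decoy libraries, against 23.9 CPM in PBS. Doublets, droplets with more than 1 cell, can mix markers in this way. The median doublet score of the Decoy cells was 0.0274, against 0.0178 to 0.0306 in the Decoy cells of the other neutrophil sub-clusters. With no doublets removed, the class had 149, 63, 221 and 127 Decoy cells and 69 PBS cells, and the log2 fold change was 1.56 for Prtn3, 1.03 for Elane, 2.02 for Mpo, 1.996 for Ctsg and 1.02 for Prss57, none of them called (edgeR adjusted p 0.390 to 0.441). The median score of PBS neutrophils, 0.235, was above the 0.0161 to 0.0408 of the Decoy libraries, where each library had its own expected doublet rate. Whether doublets among the cells that were kept carry these transcripts was not tested.

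Fcnb was placed along the neutrophil sub-clusters in an order of its own. It stood at 1000 CPM in the cells led by Top2a and Pbk, 491 CPM in those led by Camp and Chil3, 149 CPM in those marked by Ltf and Ly6g and 5.29 CPM in those marked by Retnlg and Cxcr2, genes of mature neutrophils. Mpo stood at 118, 0, 1.67 and 1.76 CPM in the same order, so it was already near zero where Fcnb was still high. By library, Fcnb in the cells led by Camp and Chil3 was 554, 340, 425 and 437 CPM in the Decoy libraries and 952 CPM in PBS, where the class was 10 cells.

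Leukaemic cells held almost none of the granule transcripts apart from Cst7. Mpo stood at 0.483, 0.712 and 0.526 CPM in Decoy 2, 3 and 6, against 0.138 CPM in PBS. Elane stood at 0.550, 0.870 and 0.814 CPM in the Decoy libraries, against 0.193 CPM in PBS. Ctsg stood at 0.462, 0.949 and 0.550 CPM in the Decoy libraries, against 0.163 CPM in PBS. The Decoy values were above PBS for each of them, at levels that are a small part of those in progenitors.

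Prtn3 was the 1 gene of the 8 called in leukaemic cells. It had 1.94, 2.53 and 2.37 CPM in Decoy 2, 3 and 6, a mean of 2.28 ± 0.307 (SD, n = 3), against 0.876 CPM in PBS, and rose by a log2 fold change of 1.43 (SE 0.26, edgeR adjusted p = 0.0411), higher in 3 of 3 Decoy libraries. DESeq2 also called it alone. edgeR called 0.687% and DESeq2 1.14% of all genes, with 0.61% and 1.05% called higher. Without Decoy 3 it was not called (edgeR adjusted p = 0.107). Without Decoy 2 edgeR called Elane, Prtn3 and Ctsg, among 751 of 12714 genes called. PBS lay below every Decoy library for 5 of 8 genes, against 17.4% of all genes, and above for 0 of 8, against 41.6%.

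Free RNA, released by broken cells and captured in every droplet, was measured beside this. Tracer genes of other cell types, such as Igkc, C1qa and Trac, gave a median ratio of leukaemic to other cells of 0.585%, 0.735% and 0.699% in Decoy 2, 3 and 6 and 0.651% in PBS. From that ratio, Mpo had 0.327, 0.600 and 0.582 times the UMIs that free RNA would give in the Decoy libraries, against 0.127 times in PBS. Prtn3 had 0.298, 0.556 and 0.668 times in the Decoy libraries, against 0.163 times in PBS. Elane, Ctsg and Fcnb were also under 1 in each library. Prtn3 was thus called from counts under the free RNA level set by the median of these 12 tracers. Tracers of late neutrophils, such as S100a8 and Camp, had lower median ratios. These were 0.151%, 0.350% and 0.230% in Decoy 2, 3 and 6 and 0.0728% in PBS. The ratio of Prtn3 ran from 0.106% to 0.467% over the same libraries, so its place depends on the tracers used. After the level of the 12 tracers was subtracted Prtn3 could not be tested, and 0 of the 3 members still testable were called.

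Cst7, Ms4a3 and Prss57 stood above the free RNA level of the 12 tracers in leukaemic cells. Cst7 had 91.3, 158 and 149 times the free RNA count in Decoy 2, 3 and 6 and 151 times in PBS. Ms4a3 had 2.09, 3.82 and 6.20 times in the Decoy libraries and 2.39 times in PBS, and Prss57 1.77, 3.05 and 2.56 times in the Decoy libraries and 1.66 times in PBS. The interval of Prss57 in Decoy 3, from 4 UMIs, reached below 1. The haemoglobin tracers were left as they came. Their ratio of leukaemic to other cells was 45.9% to 539% in the Decoy libraries and 0.580% to 3.76% in PBS. The level in leukaemic cells differed less: Hbb-bs had 752, 2432 and 1665.5 CPM in Decoy 2, 3 and 6, against 529 CPM in PBS. The ratios of the other 8 tracers ran from 0.216% to 1.08% in the Decoy libraries and from 0.224% to 1.32% in PBS.

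Cst7 was the member that leukaemic cells expressed, at 23.1, 25.1 and 27.9 CPM in Decoy 2, 3 and 6, against 27.5 CPM in PBS. A UMI was seen in 48.2%, 46.1% and 46.1% of Decoy leukaemic cells and in 49.7% of PBS ones, at medians of 28350 to 37932 UMIs in the Decoy libraries and 31624.5 in PBS. In B cells of Decoy 2, 3 and 6, which should lack it, the share was 3.60%, 0.802% and 1.09%, against 0.526% in PBS, at medians of 3809 to 9094 UMIs. After each cell was thinned to 2000 UMIs the share was 4.87%, 5.60% and 5.52% in Decoy leukaemic cells and 6.36% in PBS ones, and 1.44%, 0% and 0.219% in Decoy B cells and 0% in PBS ones. The log2 fold change of Cst7 was -0.03 (SE 0.13, edgeR adjusted p = 0.978). Ms4a3, at 2.81, 3.56 and 4.28 CPM in the Decoy libraries and 2.94 CPM in PBS, was not called either (log2 fold change 0.34, SE 0.24, edgeR adjusted p = 0.730).

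**Figure D5:**
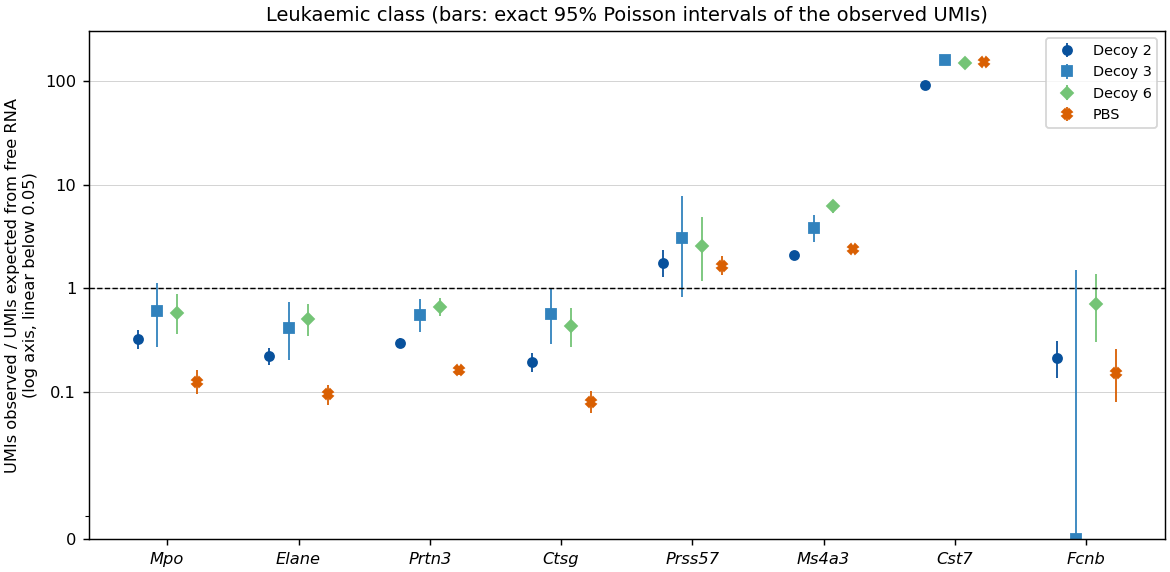
UMIs of each gene in the leukaemic class divided by the UMIs that free RNA would give (log axis, linear below 0.05), per library, with exact 95% Poisson intervals of the observed UMIs; the dashed line marks equality. Mpo, Elane, Prtn3 and Ctsg lie under the line and Cst7 stands at 91.3 to 158 in the Decoy libraries and 151 in PBS.

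Whether Decoy against PBS differed between classes was tested with the library as a block. Against the leukaemic class, the log2 fold change in progenitors and monocytes was lower by 1.90 for Mpo (difference -1.90, SE 0.20, edgeR adjusted p = 0.00515), and the differences were -2.03 for Elane (SE 0.21, edgeR adjusted p = 0.00433), -1.49 for Prtn3 (SE 0.15, edgeR adjusted p = 0.00433) and -1.89 for Ctsg (SE 0.22, edgeR adjusted p = 0.00884). These were 4 of 8, against 0.52% of 12502 genes. Without Decoy 2 it was 5 of 8, against 4.2% of 12293 genes. The leukaemic values in this contrast lie under the free RNA level of the 12 tracers given above. Against the neutrophil class, edgeR called 0 of 8, against 0.0375% of 10657 genes. At an unadjusted p under 0.05 the count was 6 of 8 members, and 830 of all genes. The difference was largest relative to its error for Prtn3 at -5.10 (SE 0.78, edgeR adjusted p = 0.0636). Leaving out Decoy 2, 3 or 5 let that difference of Prtn3 be called.

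Other genes of the granule pathway were read from fixed lists. Of 17 other primary granule and lysosome genes, 16 were tested in the progenitor and monocyte class. Ctsb, a lysosomal protease, was called higher at 282, 291, 292 and 306 CPM in the Decoy libraries against 213 CPM in PBS (log2 fold change 0.47, SE 0.10, edgeR adjusted p = 0.0481). Serpinb1a, which inhibits elastase, proteinase 3 and cathepsin G, was called lower at 123, 167, 124 and 134 CPM in the Decoy libraries against 310 CPM in PBS (log2 fold change -1.17, SE 0.16, edgeR adjusted p = 0.0106). The median log2 fold change of the list was 0.18, against 0.03 over all genes. The call of Ctsb was lost without Decoy 3, 5 or 6, and both calls were lost with no doublets removed.

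Of 12 secondary and tertiary granule genes, 11 were tested in that class and 4 fell, Lcn2, Mmp8, Hp and Ltb4r1, where 1.34% of all genes were called lower. Lcn2 (lipocalin 2) had 1006, 519, 495 and 787 CPM in the Decoy libraries, against 1992 CPM in PBS (log2 fold change -1.49, SE 0.31, edgeR adjusted p = 0.0458). Mmp8, the neutrophil collagenase, had 64.9, 30.3, 46.4 and 68.2 CPM in the Decoy libraries, against 160 CPM in PBS (log2 fold change -1.60, SE 0.32, edgeR adjusted p = 0.0420). Haptoglobin (Hp) and the leukotriene receptor Ltb4r1 fell by 0.79 and 1.23 on the log2 scale. The list median was 0.23, opposite in sign to its called genes, and the log2 fold changes ran from -1.60 to 10.26. Camp went the other way without being called, at 90.9, 29.2, 119 and 218 CPM in the Decoy libraries against 0.806 CPM in PBS. Without Decoy 3 the calls of Lcn2, Hp and Ltb4r1 were lost, without Decoy 5 that of Mmp8, and with no doublets removed those of Lcn2, Mmp8 and Hp. The sub-cluster led by Il1r2 and Dmkn, where Lcn2 stood at 6413 CPM in 11 Decoy cells and 2780 CPM in 47 PBS cells, held most of the PBS class, and its part in these falls was not tested.

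Of 11 transcription factors that act on granule genes, all were tested and 2 were called. Irf8, which favours monocytes over granulocytes, rose: it had 263, 306, 341 and 316 CPM in the Decoy libraries, against 129 CPM in PBS (log2 fold change 1.26, SE 0.15, edgeR adjusted p = 0.00668). Cebpb, which drives emergency granulopoiesis, had 406, 432, 458 and 573 CPM in the Decoy libraries, against 783 CPM in PBS (log2 fold change -0.73, SE 0.16, edgeR adjusted p = 0.0481). Of 10 genes of the secretory pathway, none was called and the median was -0.09, with Calr at 0.03 and Hsp90b1 at 0.04. In that class 1.42% of all genes were called higher. The call of Irf8 held under every alternative run, and that of Cebpb was lost without Decoy 3 or 5 and with no doublets removed.

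Over all kept cells and in neutrophils edgeR called none of these list genes. Over all kept cells the list medians were 1.39 for other primary granule and lysosome genes, 3.93 for secondary and tertiary granule genes, 3.79 for the transcription factors and 0.48 for the secretory pathway, against 0.01 over all genes. In neutrophils they were -0.07, -0.22, 0.17 and 0.13, against 0.06 over all genes. In leukaemic cells Lyz2 (lysozyme) and 5 of 10 secondary granule genes tested were called higher, against 0.61% of all genes, among them Camp at 5.18, 3.08 and 4.12 CPM in Decoy 2, 3 and 6 against 1.24 CPM in PBS. Tracers of late neutrophils stood in leukaemic cells at 0.132% to 0.553% of their level in other cells in the Decoy libraries and 0.0564% to 0.0908% in PBS, below the tracer median in every library.

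The genes most alike to the mean of the 8 were ranked by Pearson's r of log2(CPM + 1) over 43 sums of a library and class, among 5478 genes. Lbp, which binds bacterial lipopolysaccharide, led with 0.86, followed by Clec5a at 0.84, Gstm1 at 0.83, Mtus1 and Alas1 at 0.82, Chil3 and Hp at 0.80, Ap3s1 at 0.79, and Atp8b4 and F630028O10Rik at 0.78. Among the members themselves r ran from 0.42 for Cst7 and 0.76 for Fcnb to 0.97 for Elane. Clec5a, a receptor that pairs with DAP12 on myeloid cells, was called lower in the progenitor and monocyte class, at 74.4, 67.7, 58.4 and 81.9 CPM in the Decoy libraries against 159 CPM in PBS (log2 fold change -1.16, SE 0.16, edgeR adjusted p = 0.0123), a call that was lost without Decoy 3 (edgeR adjusted p = 0.0529).

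Outside these classes the members appeared in a few places. Cst7 stood at 264, 180, 192 and 199 CPM in T cells of Decoy 2, 3, 5 and 6, against 383 CPM in PBS. T cells of Decoy 2 also held 353 CPM of Ctsg, 352 CPM of Prtn3, 339 CPM of Elane and 191 CPM of Mpo, beside 332 CPM of the basophil protease gene Mcpt8. The cells of clusters left unnamed held 0.225%, 4.202%, 1.74% and 8.39% of all UMIs of the 8 genes in Decoy 2, 3, 5 and 6, against 0.0435% in PBS, with 12.98% of Elane in Decoy 6. Macrophages held 0.259% to 3.54% in the Decoy libraries and 0.105% in PBS. Plasma cells of Decoy 3 had 241 CPM of Elane and 138 CPM of Mpo, whereas those of Decoy 2 and 6 had 0 UMIs of Elane. At a finer clustering 17 cells with basophil markers separated; in them Ctsg stood at 2362 CPM and Mpo at 643 CPM, whereas Elane had 1 UMI and Fcnb 0 UMIs, where 3 UMIs would be 12.3 CPM. In those cells the members did not come as 1 set: Ctsg and Mpo were present without Elane.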

How the data were processed

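The deposited values were counts of UMIs per gene and cell barcode, not normalized. Per the file headers Cell Ranger 5.0.0 wrote the matrices, while the submitters' processing notes list Cell Ranger 3.1, Seurat 4, DESeq2 and mm10, and the annotation is not given in the sources used here. A barcode was kept when it had 500 genes or more, 1000 UMIs or more, and mitochondrial UMIs of 10% or less. The automatic doublet threshold of scrublet (scanpy 1.11.5) marked at most 0.240% of barcodes in the Decoy libraries and 6.22% in PBS. Given the low Decoy figures, the highest scores were removed at the expected 0.8% per 1000 barcodes. That rate came to 1.96% to 5.49% in the Decoy libraries and 15.5% in PBS, so removal was unequal. With no doublets removed, the progenitor and monocyte class had 214, 139, 319 and 152 cells in Decoy 2, 3, 5 and 6 and 135 in PBS. Among its kept cells the median doublet score was 0.0143 to 0.0626 in the Decoy libraries and 0.233 in PBS. Leiden clusters (leidenalg 0.10.2, resolution 0.5) came from 2000 variable genes. The 8 members, cell cycle, interferon, ribosomal and mitochondrial genes, Xist and other sex-linked genes were left out of these. A name needed at least 3 markers. The leukaemic name instead needed Xist at 300 CPM or more, and Fcer1a, Ms4a2 and Cpa3 each in at least 10% of the cells. Each file held 56490098 to 234251245 UMIs in the Decoy libraries and 579333323 in PBS. Clusters correlating at 0.96 or more were merged after they had been seen.

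UMIs were summed per library and class with at least 20 cells and passed through filterByExpr and TMM scaling. They were compared with edgeR 4.0.16 in R 4.3.3 (quasi-likelihood test, two-sided, Benjamini-Hochberg over all genes, threshold 0.05). The code was run on counts simulated with known changes and 1 dispersion of 0.1 for every gene and class. That dispersion was not taken from these data, so the shares called do not give the power within each class. Most of the known changes were missed by the code. Of genes with a log2 change of 2 it called 53% over all kept cells and 39% in progenitors and monocytes. In neutrophils it called 12% of them and in leukaemic cells 35%. Of genes with a log2 change of 1 it called 3%, 1%, 0% and 2% in the same order. With 1 PBS library, residual variation is that among Decoy libraries. CPM values use plain totals. Intervals (exact, 95%) and floors (3 counts) cover counting error only. Free RNA UMIs were computed from the median ratio of 12 tracer genes. Named genes were the 8 members, the 10 genes most alike, and of each list up to 4 called genes, or its 2 most abundant where none was called. The members and lists were chosen with earlier results of these data known. Alternatives covered the test, scaling, filters, doublets, clustering, Xist-high cells, free RNA and leaving out each Decoy library; leaving libraries out of the differences between classes was added after seeing the data.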

Additional observations from a re-analysis of the deposited data

Results flagged for a closer look

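The share of progenitor and monocyte cells among cells outside the leukaemic class set Decoy 2 apart from the other Decoy libraries: it was 17.8% in Decoy 2, against 8.06% to 8.44% in Decoy 3, 5 and 6, and 7.06% in PBS. The gap from Decoy 2 to its nearest neighbour was 0.961 of the Decoy range, above Dixon's 95% critical value for 4 samples. This was 1 of 27 groups of 4 tested, and chance marks about 1 in 20. Without Decoy 2, the library with the most leukaemic cells among the Decoy ones, edgeR called 7 of 8 members over all kept cells in place of 0.

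The effect of Decoy against PBS differed between the progenitor and monocyte class and the leukaemic class for 4 genes, by a test of the difference itself. Progenitor and monocyte minus leukaemic was -1.90 for Mpo, -2.03 for Elane, -1.49 for Prtn3 and -1.89 for Ctsg on the log2 scale (edgeR adjusted p 0.00433 to 0.00884). The leukaemic counts behind it were 0.195 to 0.668 times the free RNA level of the 12 tracers in the Decoy libraries and 0.0815 to 0.163 times in PBS.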

How the results depend on the processing

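Of 362 alternative values for single members 309 kept their direction and side of the threshold, of 56 for differences between classes 51 did, and of 457 for other named genes 398 did. Over all kept cells the count of called members was 7 with DESeq2 and 0 to 7 when 1 Decoy library was left out. In neutrophils it was 2 with DESeq2, 5 with no filter, 1 without Xist-high cells, 1 after free RNA was subtracted and 0 to 1 leaving out 1 library. In leukaemic cells it was 4 with no filter, 0 after free RNA was subtracted and 0 to 3 leaving out 1 library. The count of differences against neutrophils was 0 to 1 leaving out 1 library, and the summed level in progenitors and monocytes differed by -291 to 591 CPM. In every alternative run the count in progenitors and monocytes was 0. Of all genes, in progenitors and monocytes 305 were called, against 539 with no filter, 604 after free RNA was subtracted, 119 with doublets kept, 467 without Decoy 2 and 80 without Decoy 3. In neutrophils 3 were called, against 44 with DESeq2, 77 with no filter, 48 after free RNA was subtracted, 15 without Xist-high cells, 1 at the mitochondrial limit of 5%, 0 with doublets kept and 2 to 20 leaving out 1 library. In leukaemic cells 98 were called, against 236 with DESeq2, 529 with no filter and 23 to 751 leaving out 1 library. Over all kept cells 0 were called, against 2059 with DESeq2 and 2401 without Decoy 2. No filter moved the median of all genes to 0.11 in progenitors and monocytes and 0.34 in neutrophils.

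Signs turned only for values that were not called. In progenitors and monocytes, leaving out 1 library gave log2 ranges of -0.11 to 0.21 for Elane, -0.042 to 0.094 for Prtn3, -0.037 to 0.13 for Ctsg, -0.081 to 0.016 for Cst7, -0.24 to 0.21 for Fcnb, -0.046 to 0.065 for Calr and -0.040 to 0.097 for Hsp90b1. Free RNA subtraction gave -0.10 for Elane, -0.15 for Prtn3, -0.13 for Ctsg, -0.19 for Fcnb, -0.084 for Calr and -0.094 for Hsp90b1. A mitochondrial limit of 5% gave -0.017 for Prtn3, -0.0090 for Ctsg and -0.00083 for Fcnb, and resolution 1.0 gave -0.0045, -0.013 and -0.0016. Cst7 turned to 0.041 with doublets kept and 0.018 without Xist-high cells. In neutrophils, keeping doublets gave 0.24 for Lyz2, 0.38 for Serpinb1a, 0.38 for Camp, 0.44 for Ngp, 0.52 for Cebpe, 0.56 for Spi1, 0.33 for Hsp90b1, -0.051 for Hspa5, 0.31 for Chil3 and 0.60 for Hp, no filter gave 0.0063 for Spi1 and 0.021 for Hp, and leaving out 1 library gave -0.22 to 0.0038 for Hsp90b1, -0.089 to 0.16 for Hspa5 and -0.11 to 0.049 for Hp. In leukaemic cells Cst7 was -0.12 to 0.038 and Runx1 -0.10 to 0.038 leaving out 1 library, and 0.026 and 0.012 at the mitochondrial limit of 5%. The difference for Cst7 against leukaemic cells was -0.13 to 0.0039. The causes were not tested. No paired analysis was possible because the single PBS library carries no replicate number that the Decoy libraries share.

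With 1 PBS library, of 90 progenitor and monocyte and 46 neutrophil cells, a difference between groups cannot be told apart from one between libraries. Decoy 5 adds no leukaemic cells. Permutation tests cannot fall below 0.2.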
